A study of Homo sapiens with 36 samples.

Results

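The regions described here are stretches of the human genome that lay inside macroH2A1.2 islands of aphidicolin-treated K562 cells and outside those of untreated K562 cells. K562 is an erythroleukaemia cell line. An island is a run of the genome that the authors listed as enriched in 1 chromatin immunoprecipitation library. On the 200-bp grid on which the islands lie, a base was counted as gained where it was inside the islands of both aphidicolin libraries (replicates 1 and 3) and of neither untreated library (replicates 1 and 3). Adjoining gained bins were joined, and runs of at least 2 kb on chromosomes 1 to 22 and X were kept. The regions were thus selected on the islands of these 4 macroH2A1.2 libraries, and their values in them are given as a description, without a test. This gave 10992 gained regions with a summed length of 42.3 Mb, out of 86515 segments of at least 2 kb with 1 unbroken pattern in at least 1 of the 4 lists. Where a contrast is needed, gained regions are set beside 20333 kept regions (inside all 4 lists, 128 Mb) and 6301 lost regions (inside both untreated lists and neither aphidicolin list, 25 Mb).

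Chromatin of K562 was digested with micrococcal nuclease and precipitated with antibodies to macroH2A1.2, to macroH2A1 or to γH2AX. The macroH2A1.2 groups were untreated (2 libraries), aphidicolin (2), and 1 library each of untreated cells carrying the hairpin sh-RFP or sh-mH1.2. The macroH2A1 groups were untreated (2) and aphidicolin (2), and the γH2AX groups of K562 were untreated (5) and aphidicolin (5). Untreated and aphidicolin-treated 2A3 gave 1 γH2AX library each, 2A3 being a line that is not explained in the sources used here. The γH2AX libraries fall into 3 sets by the form of their titles, called set 1, 2 and 3 below. Set 2 shares its title stem with the macroH2A1.2 libraries that defined the regions, whereas the macroH2A1 libraries share the form of set 1. As to dose, a 0.5 with no unit stands in the titles of treated set 1 libraries, and no dose is given in sets 2 and 3, so it cannot be said whether the doses were equal. The exposure time is not in the labels, and nothing in them says that replicates were separate cultures. The p-values below therefore measure the spread between libraries, which may be technical, together with variance borrowed from other segments. Island lists hold no expression values, so the identity of the cells was not checked.

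Reads inside islands numbered 9641246 to 12524522 in the 4 macroH2A1.2 libraries that defined the regions, and their lists covered 242 and 286 Mb untreated and 307 and 318 Mb under aphidicolin. The macroH2A1 lists covered 332 and 343 Mb untreated and 438 and 439 Mb under aphidicolin. The γH2AX lists of K562 covered 38.6 to 85.3 Mb untreated and 64.6 to 235 Mb under aphidicolin. The aphidicolin lists of each target were longer on the whole. Part or all of a difference in cover over any set of regions can therefore move with the length of the list. Values at equal covered length are given for the gained, kept and lost regions as a whole and for the calls. They were not computed for γH2AX or macroH2A1 cover in subsets of the gained regions. A base outside an island is one that was not called at that library's depth, which does not show that the protein was absent.

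MacroH2A1 is a large histone H2A variant that carries a globular macro domain behind its histone fold, and alternative splicing of its gene gives the forms macroH2A1.1 and macroH2A1.2. It is abundant in silent chromatin, including the inactive X chromosome, and macroH2A1.2 is also known to gather around DNA breaks and at fragile sites that replicate with difficulty. Aphidicolin inhibits replicative DNA polymerases, and at low doses it slows replication forks and causes breaks at common fragile sites. γH2AX is histone H2AX phosphorylated by the kinases of the DNA damage response and spreads around breaks and stalled forks.

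Gained regions were narrow. Their median width was 3.4 kb, with quartiles of 2.6 and 4.4 kb, and the 90th percentile was 6 kb. Kept regions had a median of 4.2 kb and reached 678.4 kb, whereas the widest gained region measured 73.0 kb. Regions from 2 kb to under 3 kb made up 36.4% of the gained regions (3997) and those from 3 kb to under 5 kb made up 44.1% (4842). Widths of 5 kb to under 10 kb were found for 1991 regions, 10 kb to under 20 kb for 154, and 20 kb or more for 8. Without a minimum width there were 22843 gained runs with 52.4 Mb, of which the regions described here held 80.7% of the bases. The number rests on each aphidicolin library: without replicate 1 in the definition there were 16815 gained regions with 89.9 Mb, and without replicate 3 there were 21537 with 91.7 Mb. Without untreated replicate 1 their length was 64.3 Mb. The 867 regions of exactly 2000 bp and the 850 runs of 1800 bp that just missed the minimum had close values: macroH2A1 aphidicolin islands covered 76.8% and 74.1% of them, and γH2AX aphidicolin islands covered 14.5% and 14.3%.

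Gained regions lay mostly beside or near existing macroH2A1.2 islands. An island of at least 1 untreated library adjoined 3914 gained regions (35.6%), came within 2 kb of 5149 (46.8%) and within 10 kb of 7621 (69.3%), and the median distance was 2.8 kb. The gained region was flanked directly on 1 side by an untreated island in 3323 cases and on both sides in 591. At the other end of the scale, 984 regions (8.95%) had no untreated island within 50 kb and 468 (4.26%) had none within 100 kb. Stretches inside all 4 lists, taken here at any length, are parts of untreated islands and so cannot lie nearer than these. Such a stretch adjoined 198 gained regions and lay within 10 kb of 4697 (42.7%), and the median distance was 14.0 kb. Gained regions also lay near each other, with a median distance of 8.4 kb to the next and 54.2% having another within 10 kb. The aphidicolin island around a gained region touched no island of either untreated library, in both aphidicolin lists, for 5412 regions (49.2%). The other 5580 (50.8%) were parts of aphidicolin islands that, in 1 list or both, also overlapped an untreated island. These distances follow from the libraries that defined the regions and are a description.

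Within the defining libraries, gained regions lay in islands of lower read density than kept regions. In aphidicolin replicate 1 the islands over gained regions held 35.6 reads per kb and those over kept regions 47.1, and in replicate 3 the values were 29.8 and 39.3. Lost regions had the same standing in the untreated libraries, at 39.7 reads per kb against 46.9 for kept regions in replicate 1 and 35.9 against 44.4 in replicate 3.

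MacroH2A1, measured with another antibody in libraries that the selection did not use, was already present over much of the gained length without aphidicolin. Its islands covered 55.7% and 58.3% of the gained length in untreated replicates 1 and 2, and 78.5% and 78.1% in aphidicolin replicates 1 and 2. The aphidicolin libraries were both above the untreated ones, and the mean difference was 21.3 points. Over kept regions the untreated values were 87.9% and 89.1% and the aphidicolin values 94.9% and 93.9%. Over lost regions they were 62.9% and 64.4% against 68.0% and 66.6%, and over the whole span 10.9% and 11.3% against 14.4% in each aphidicolin library. When each macroH2A1 list was shortened to the same covered length by taking its densest islands first, the gained regions stood at 56.2% ± 0.72 (SD, n = 2) untreated and 61.4% ± 0.646 (n = 2) under aphidicolin. The mean difference was then 5.14 points, and lost regions stood at 63.1% ± 0.196 and 57.1% ± 1.65.

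**Figure D1:**
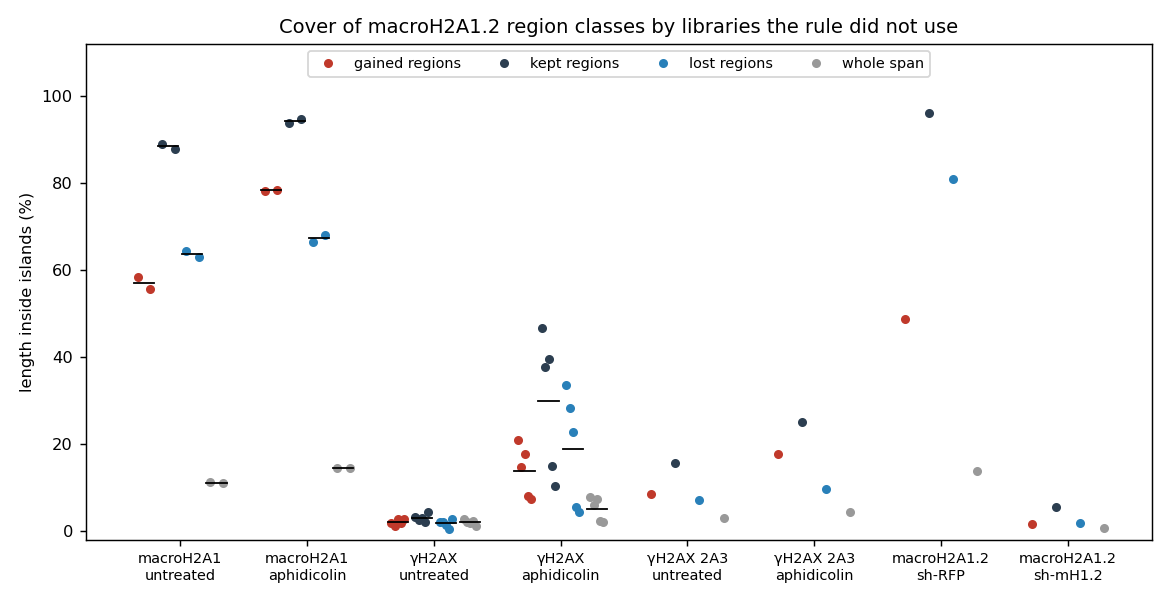
Percent of the summed length of gained, kept and lost regions and of the whole span inside the islands of each library that did not define them, with 1 point per library on the vertical axis and the library groups along the horizontal one, short lines marking group means. Gained regions sit at 55.7% and 58.3% for untreated macroH2A1 and at 78.1% and 78.5% for aphidicolin, and γH2AX reaches 20.9% of them at most.

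Region by region, macroH2A1 gave a mixed picture rather than 1 common change. With a region counted as held where islands covered at least 50% of it, 5013 gained regions (45.6%) were held by all 4 macroH2A1 lists, against 82.7% of kept and 50.1% of lost regions. Another 1183 (10.8%) were held by both aphidicolin lists and neither untreated list, against 3.30% of kept and 4.25% of lost regions. The reverse pattern, untreated only, was seen in 12 gained regions. No macroH2A1 list held 1239 gained regions (11.3%), and 3545 (32.3%) had other mixtures. By bases, the stretch that was gained by macroH2A1 itself under the same definition shared 4.36 Mb with the gained macroH2A1.2 regions, which is 10.3% of the latter and 8.77% of the 49.7 Mb gained by macroH2A1. Bases gained by macroH2A1 took 1.64% of the whole span.

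The percent of each segment inside macroH2A1 islands was fitted with limma across the genome, aphidicolin against untreated, with Benjamini-Hochberg adjustment over the 100063 segments that at least 2 libraries touched. Of the gained regions, 9256 passed that filter, and 773 of them (8.35%) were higher and 19 (0.205%) lower at an adjusted p under 0.05. Over all segments tested, 7.26% were higher and 0.913% lower, so the share of gained regions called higher was near that of the genome. Kept regions were called higher in 3.36% and lost regions in 3.37% of those tested. In 492 of the 773 calls the libraries of each group had identical cover, so that the SE rests wholly on the variance that limma borrows from the other segments. These counts depended on single libraries. A fit without 1 library leaves 1 in a group, so only its median difference is given. Over the gained regions tested it was 5.06 and 0 points without untreated replicate 2 or 1. Without aphidicolin replicate 2 or 1 it was 7.41 and 6.90 points. Over all segments tested it was 2.5, 0, 2.63 and 2.5 points in the same order. With all 4 libraries the medians were 10.9 points for gained regions and 6.45 for all segments. At equal covered length 308 gained regions were higher (3.93%) and 157 lower (2.00%), against 3.11% in each direction over all segments. EdgeR's quasi-likelihood test on the reads in islands called 0 higher and 0 lower after adjustment, with 1293 higher and 94 lower at an unadjusted p under 0.05, against 1411 and 45 in limma.

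The 5 widest of the 319 gained regions with the largest possible macroH2A1 difference were of 2 kinds. How many segments outside the gained regions reached that difference was not counted. In chr16:46385601-46458600 (73.0 kb), chr2:90371401-90413000 (41.6 kb), chr8:43820001-43838800 (18.8 kb) and chr8:46838801-46857600 (18.8 kb), macroH2A1 cover was 0% in both untreated libraries and 100% in both aphidicolin libraries. The limma difference was 100 points with an SE of 0.203 and an adjusted p of 2.50e-05. These 4 regions were also inside islands over 100% of their length in the sh-mH1.2 library, and each had 100% cover in at least 1 untreated γH2AX library. The part that signal shared with these other lists plays in the calls was not tested. The other kind was chr1:118357601-118366800 (9.2 kb), which adjoined an untreated macroH2A1.2 island and had the same macroH2A1 values of 0% and 100%. There the sh-mH1.2 library covered 0%. The sh-RFP library covered 100% of this region and of the regions on chromosomes 2 and 8, and 0% of the one on chromosome 16. γH2AX covered 89.1% to 100% of it in the 4 aphidicolin libraries of sets 1 and 2 and 0% in set 3. In untreated cells γH2AX covered 0% in sets 1 and 2 and 39.1% in set 3.

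A few gained regions went the other way for macroH2A1. In chr5:132840201-132842200 (2.0 kb) both untreated libraries covered 100% and both aphidicolin libraries 0%. In chr1:183335401-183338000 (2.6 kb) the untreated values were 100% and 92.3% and both aphidicolin values 0%, a drop with an adjusted p of 0.00959 in limma. Cover of chr5:43858001-43860600 (2.6 kb) was 92.3% and 100% untreated and 0% in both aphidicolin libraries. These 3 regions had no overlap between the groups, although macroH2A1.2 islands appeared there with aphidicolin by definition. In chr3:32108001-32111000 (3.0 kb) the untreated libraries stood at 100% and the aphidicolin libraries at 20% and 6.67% (adjusted p 0.0335, limma). This call turned to a higher value of 13.3 points (adjusted p 0.632) when only the denser 50% of macroH2A1 islands was used. In chr5:93468801-93471600 (2.8 kb) untreated cover was 57.1% and 64.3% and aphidicolin cover 0% (adjusted p 0.0199, limma).

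γH2AX islands covered little of the gained length without aphidicolin and more of it with aphidicolin in every title set. The untreated libraries covered 2.85% and 1.93% in set 1 (replicates 1 and 2), 1.19% and 1.88% in set 2 (replicates 1 and 3) and 2.69% in set 3. The aphidicolin libraries covered 14.8% and 20.9% in set 1, 17.7% and 8.12% in set 2, and 7.38% in set 3. The groups did not overlap: the highest untreated value was below the lowest aphidicolin value, and the means were 2.11% ± 0.672 and 13.8% ± 5.92 (SD, n = 5 each). Within the aphidicolin group the libraries with longer lists gave higher values, and set 2 replicate 3 and set 3, whose lists covered 72.8 and 64.6 Mb, gave the lowest. The untreated group had no such order: its longest list, set 2 replicate 3 with 85.3 Mb, covered 1.88%, less than the shorter lists of set 1 replicate 1 and set 3.

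Gained regions did not stand above kept or lost regions in γH2AX. Under aphidicolin, cover was 29.9% ± 16.1 over kept regions and 18.9% ± 13.3 over lost regions (SD, n = 5). It was 5.09% ± 2.67 over the whole span and 2.58% ± 1.38 over segments without macroH2A1.2 in any of the 4 lists. Kept regions were above gained regions in each of the 5 aphidicolin libraries. Lost regions were above gained regions in set 1 (28.2% and 33.7%) and in set 2 replicate 1 (22.8%), and below them in set 2 replicate 3 (5.58%) and set 3 (4.46%). The flanks of gained regions had 12.6% ± 5.61, close to the regions themselves. Relative to the whole span, γH2AX cover of gained regions was 2.44 to 3.47 times as high in the aphidicolin libraries and 0.568 to 2.12 times in the untreated ones. With every γH2AX list shortened to the same covered length, gained regions stood at 1.66% ± 0.789 untreated and 2.71% ± 0.939 under aphidicolin, a mean difference of 1.04 points where the full lists gave 11.7. Kept regions stood at 2.65% and 9.77% on that basis, and lost regions at 1.46% and 5.47%.

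Few single regions carried γH2AX in most libraries. Under aphidicolin, no γH2AX list held 6613 gained regions (60.2%), 1 list held 2313, 2 lists 1243, 3 lists 517, 4 lists 239, and all 5 lists held 67 (0.610%, against 1.59% of kept regions). In untreated cells no list held 10237 regions (93.1%), and no gained region was held by all 5. At least 4 aphidicolin lists and no untreated list held 247 gained regions (2.25%), against 5.81% of kept and 3.35% of lost regions. Neither untreated nor aphidicolin lists held 6274 (57.1%).

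In the limma fit of γH2AX cover with title set as a term, 3189 gained regions passed the filter of at least 2 libraries, and 263 (8.25%) were higher and 6 (0.188%) lower at an adjusted p under 0.05. Over the 87912 segments tested, 6.30% were higher and 1.48% lower. The share of kept regions called higher was 11.9% and that of lost regions 8.87%. Of the 263, 100 had every aphidicolin library above every untreated library within each title set, and none of the 6 lower calls was separated in that way. Separation was not counted in segments outside the gained regions, so this number has no share to stand beside. Without any 1 untreated library of sets 1 and 2, 59 to 61 gained regions were called higher. That is 1.88% to 1.96% of those tested, against 1.52% to 1.59% of all segments. The number was 80, 98 and 77 without set 1 replicate 2, set 1 replicate 1 or set 2 replicate 1 of the aphidicolin group, and 417 without set 2 replicate 3. These were 3.58%, 4.11%, 3.06% and 14.7% of those tested, against 2.20%, 2.26%, 1.93% and 14.0% of all segments. With title set 2 left out, the set that shares its stem with the defining libraries, 134 were higher (6.49%, against 4.77% of all segments). At equal covered length 9 were higher (1.31%, against 2.00% of all segments and 4.81% of kept regions).

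The strongest γH2AX calls were short, complete switches. The regions chr7:135502801-135506600 (3.8 kb), chr5:132449401-132452800 (3.4 kb), chr6:11628401-11631000 (2.6 kb), chr7:104491401-104494000 (2.6 kb) and chr3:44579001-44581200 (2.2 kb) had γH2AX cover of 0% in all 5 untreated libraries and 100% in all 5 aphidicolin libraries. The limma difference was 100 points with an SE of 6.02 and an adjusted p of 9.28e-05, and 7 gained regions had this pattern. In this pattern the libraries of each group had identical cover, so the SE rests wholly on the variance that limma borrows from other segments. It was not counted in segments outside the gained regions. Both chr7:104491401-104494000 and chr3:44579001-44581200 adjoined an untreated macroH2A1.2 island, and the others lay 800 to 13800 bp from one. MacroH2A1 covered 100% in all 4 libraries in chr7:135502801-135506600 and in the regions on chromosomes 5 and 3. In the chromosome 6 region it covered 100% in aphidicolin replicate 1 and 0% in the other 3 macroH2A1 libraries, and in chr7:104491401-104494000 it covered 0% in untreated replicate 1, 100% in untreated replicate 2, 69.2% in aphidicolin replicate 1 and 100% in aphidicolin replicate 2. In line 2A3, which did not enter the fit, untreated cover was 0% in all 5 regions. Its aphidicolin cover was 100% in 3 of them, 63.6% in the chromosome 3 region and 0% in the chromosome 6 region.

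The 263 regions with higher γH2AX had much macroH2A before treatment by other measures. Their mean macroH2A1 cover was 75.9% and 78.1% in untreated replicates 1 and 2, and the sh-RFP library covered 79.3%. An untreated macroH2A1.2 island adjoined 55.9% of them, against 35.6% of all gained regions. An aphidicolin island of their own in both lists was found for 20.9%, against 49.2%. Only the 3189 gained regions touched by at least 2 γH2AX libraries could be called, and the comparison with those was not made. Their mean γH2AX cover in line 2A3 was 26.9% untreated and 53.6% under aphidicolin. The 773 regions with higher macroH2A1 had another makeup: macroH2A1 cover of 14.6% in each untreated library, low as the call itself requires, 46.2% in sh-RFP, and 58.6% with an island of their own. Both marks were called higher in 11 regions, which is 4.18% of the γH2AX calls and 1.42% of the macroH2A1 calls. Of all gained regions, 7.03% were called higher for macroH2A1 and 2.39% for γH2AX, and the overlap was not tested. By chromosome the γH2AX calls were most frequent on 21, with 18 of 209 gained regions (8.61%), and on 3, with 28 of 480 (5.83%). Chromosome 1 had the most, 58 of 1449. These shares are of all gained regions, tested or not. The share of all segments called on each chromosome was not counted, so they have none to stand beside. Mean aphidicolin γH2AX cover of gained regions was 24.0% on chromosome 21 and 19.5% on 3, against 13.8% over all gained regions.

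γH2AX values went with the macroH2A1 state of the gained regions. In the 5013 regions held by all 4 macroH2A1 lists, γH2AX cover was 1.01% ± 0.856 untreated and 17.4% ± 9.37 under aphidicolin (SD, n = 5 each). In the 1183 held by the aphidicolin lists only it was 2.97% ± 1.60 and 11.5% ± 4.35. In the 1239 held by no macroH2A1 list it was 6.34% ± 1.96 and 7.75% ± 3.96. Without the 10-kb and wider regions, a setting chosen after seeing the data, the untreated and aphidicolin means were 0.834% and 17.0% in the first of these states, 1.40% and 11.2% in the second and 4.26% and 6.63% in the last. In every one of these 3 states the aphidicolin mean was then above the untreated one, and the gap was widest where all 4 macroH2A1 lists held the region. The share of regions with an aphidicolin island of their own was 37.6% in the first of these states, 59.5% in the second and 68.0% in the last. No test was made of these differences between states, and they were not computed at equal covered length.

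**Figure D2:**
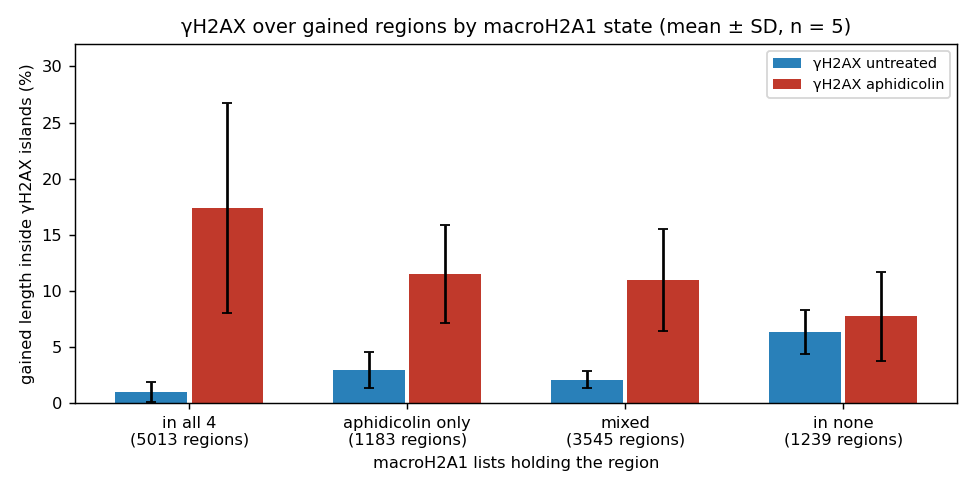
γH2AX cover, in percent of length, of gained regions split by which macroH2A1 lists held them, with bars for the mean and whiskers for the SD over 5 K562 libraries. The 12 regions held by untreated lists only are not drawn, and the bars lie far apart in regions held by all 4 macroH2A1 lists (means 1.01% and 17.4%) and close together in regions held by none (6.34% and 7.75%).

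MacroH2A1 cover and aphidicolin γH2AX cover of gained regions were lower with distance from existing macroH2A1.2, and untreated γH2AX cover was not. Regions adjoining an untreated macroH2A1.2 island (3914) had macroH2A1 cover of 68.8% ± 1.42 untreated and 85.6% ± 0.103 under aphidicolin (SD, n = 2 each). Regions up to 10 kb away (3707) had 56.4% ± 2.35 and 78.9% ± 0.402, those 10 to 50 kb away (2387) had 47.7% ± 2.15 and 72.5% ± 0.231, and those more than 50 kb away (984) had 37.6% ± 0.453 and 63.1% ± 0.568. The order of the 4 classes was the same in each macroH2A1 group, and neighbouring classes were farther apart than the SD of the replicates. Under aphidicolin γH2AX covered 18.8% ± 8.50, 14.6% ± 6.51, 8.48% ± 3.34 and 4.47% ± 0.993 of the classes in order of distance (n = 5). In untreated cells the values were 1.86% ± 0.679, 1.89% ± 0.660, 1.92% ± 0.666 and 4.43% ± 1.48. The untreated and aphidicolin libraries overlapped in the class beyond 50 kb, with ranges of 2.63% to 6.51% and 3.25% to 5.68%. A few wide regions carried much of this: without the 6 regions of 10 kb or more in that class, the means were 1.82% ± 0.830 untreated and 2.85% ± 0.967 under aphidicolin, and the ranges of 1.08% to 3.15% and 1.74% to 3.96% still overlapped. Leaving out such regions changed the aphidicolin means of the nearer classes little, to 18.5%, 14.5% and 8.22%. In the adjoining class the lowest aphidicolin library stood at 8.95%. The values by distance were not computed at equal covered length. Line 2A3 had γH2AX cover of 10.7%, 9.53%, 5.55% and 3.94% untreated and 23.4%, 18.8%, 12.1% and 6.80% under aphidicolin, in the same order.

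**Figure D3:**
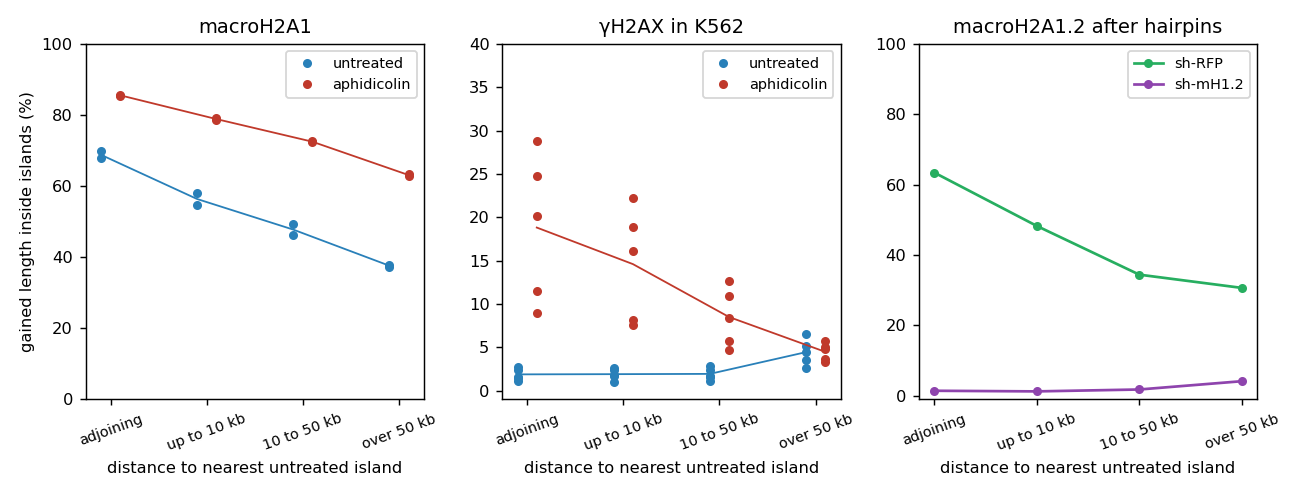
Percent of length inside macroH2A1, γH2AX and hairpin-library islands for gained regions in 4 classes of distance to the nearest untreated macroH2A1.2 island, with 1 point per library and lines through the group means. MacroH2A1 and aphidicolin γH2AX are highest in the adjoining class (85.6% and 18.8% under aphidicolin) and lowest beyond 50 kb (63.1% and 4.47%).

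MacroH2A1.2 was also measured in cells without aphidicolin that carried the hairpin sh-RFP. The sh-RFP library held 75168077 reads in islands over 418 Mb, well above the libraries that defined the regions, and its name carries the words merged and sorted without saying what was merged. Its islands covered 48.8% of the gained length, 96.1% of the kept and 80.9% of the lost length, against 13.8% of the whole span. It held 5652 gained regions (51.4%), so that about as many gained regions were inside as outside the macroH2A1.2 islands of this library, which differs from the defining ones by hairpin, title set and reads in islands together. Shortened to the 242 Mb of the shortest defining list, a setting chosen after seeing the data, it covered 14.6% of gained, 83.6% of kept and 57.9% of lost length. With distance its cover of gained regions went from 63.4% in the adjoining class through 48.3% and 34.4% to 30.6% beyond 50 kb.

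The gained regions held by no untreated macroH2A library were a minority. Neither sh-RFP nor untreated macroH2A1 lists held 2101 of them (19.1%), against 1.14% of kept and 9.28% of lost regions. Of these, 618 (5.62% of all gained regions) were held by both aphidicolin macroH2A1 lists, so that both antibodies gave islands with aphidicolin only. No macroH2A1 list and not sh-RFP held 861 (7.83%). At the other extreme, sh-RFP and all 4 macroH2A1 lists held 3127 (28.4%).

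Knockdown with sh-mH1.2 left few islands, with 2022630 reads over 23.7 Mb, and they covered 1.65% of the gained length, 5.43% of the kept and 1.79% of the lost length. Each hairpin has 1 library, so the difference from sh-RFP has no replicate check. The sh-mH1.2 list held 95 gained regions (0.864%). Those 95 had macroH2A1 cover of 31.9% untreated and 66.1% under aphidicolin, and γH2AX cover of 36.9% ± 16.4 untreated and 21.4% ± 6.93 under aphidicolin (n = 5 each). The 10897 others had 57.4% and 78.5% for macroH2A1 and 1.53% ± 0.542 and 13.7% ± 6.09 for γH2AX. The untreated γH2AX mean was thus far higher in the 95 regions than in the rest, and in them it was not below the aphidicolin mean.

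Most of the widest gained regions belonged to the set held by the sh-mH1.2 list. Of the 10 widest, 8 were held by it, as were 7 of the 8 that reached 20 kb and 11 of the 162 that reached 10 kb (6.79%). The widest, chr16:46385601-46458600, began at the end of a stretch of 11.1 Mb with no island in any list, and its islands held 1391 reads per kb in aphidicolin replicate 1, 1034 in replicate 3 and 1419 in sh-mH1.2. The next, chr1:142891001-142960600 (69.6 kb), had macroH2A1 cover of 0% in all 4 libraries, and sh-mH1.2 cover of 100%. γH2AX covered 100% of it in 4 of the 5 untreated libraries and 0% in set 2 replicate 1. Under aphidicolin γH2AX covered 100% of it in sets 1 and 3, 0% in set 2 replicate 1 and 75% in set 2 replicate 3. In chr7:61779401-61810000 (30.6 kb) macroH2A1 was at 0% throughout and sh-mH1.2 at 100%, while γH2AX covered 97.4% to 100% in the 4 untreated libraries of sets 1 and 2 and at most 7.84% in any aphidicolin library. The region chr13:81088001-81109400 (21.4 kb) likewise had no macroH2A1 and 99.1% sh-mH1.2 cover, and lay 1038400 bp from the nearest untreated macroH2A1.2 island. The regions chr2:91595001-91617400 (22.4 kb) and chr22:16847801-16867400 (19.6 kb), had macroH2A1 and sh-mH1.2 cover of 100% and untreated γH2AX cover of 100% in set 1 only.

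Only 2 of the 10 widest lacked sh-mH1.2 cover. The region chr1:48008001-48031200 (23.2 kb) had an untreated macroH2A1.2 island on each side, macroH2A1 and sh-RFP cover of 100% and sh-mH1.2 cover of 0%. In K562 its γH2AX cover was 0% in all 5 untreated libraries, and under aphidicolin 0% in both libraries of set 1, 92.2% and 57.8% in set 2 and 6.03% in set 3. In line 2A3 γH2AX covered 44.8% of it untreated and 96.6% under aphidicolin. The region chr4:9330601-9350000 (19.4 kb) had no K562 γH2AX, sh-RFP cover of 100%, and macroH2A1 cover of 100% in aphidicolin replicate 2 and 0% in the other 3 macroH2A1 libraries. The remaining wide region, chr16:71097601-71121800 (24.2 kb), adjoined an untreated island and had macroH2A1 and sh-RFP cover of 100% and sh-mH1.2 cover of 92.6%. γH2AX covered 100% of it in both untreated libraries of set 1 and 0% in both aphidicolin libraries of that set, whereas in set 2 it covered 46.3% and 33.9% untreated and 100% and 55.4% under aphidicolin (replicates 1 and 3).

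**Figure D4:**
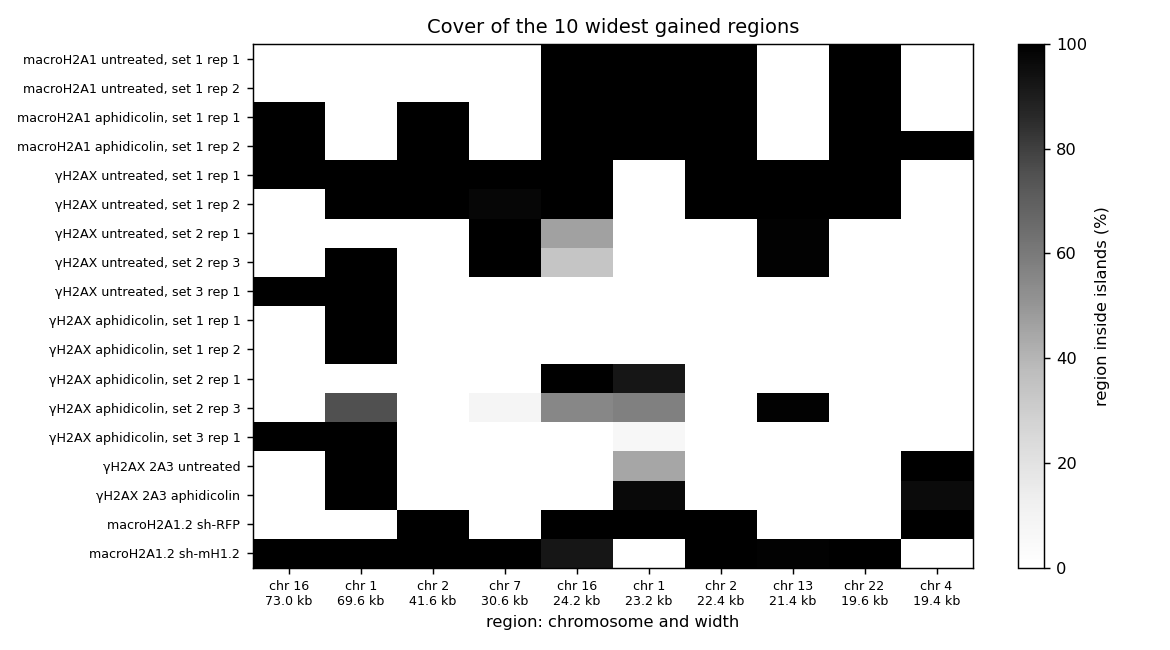
Cover of the 10 widest gained regions (columns, named by chromosome and width in kb) by each list (vertical axis), shaded from 0% (white) to 100% (black) of the region's length. The sh-mH1.2 list covers 8 of the 10, and 3 regions have no macroH2A1 cover in any of the 4 libraries.

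Gained regions within 1 Mb of the largest stretch without islands on their chromosome numbered 58 with 0.434 Mb, which is 1.03% of the gained length. The 1 Mb on both sides of these stretches takes at most 1.52% of the whole span. In the 58 regions macroH2A1 cover was 28.4% untreated and 61.8% under aphidicolin, and γH2AX cover 37.7% and 26.6%. Their sh-mH1.2 cover was 55.3%, against 1.65% for all gained regions. The 162 regions of 10 kb or more had macroH2A1 cover of 68.7% and 87.5%, γH2AX cover of 10.3% ± 4.77 and 20.5% ± 5.48, and sh-mH1.2 cover of 16.8%. No filter for mappability was applied to any of these regions.

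Gained regions were unevenly spread over chromosomes. They took 13.9 kb per Mb over the whole span and 14.9 kb per Mb on the median chromosome. The highest densities were on chromosomes 16 (29.8 kb per Mb), 20 (24.5), 1 (23.3), 7 (21.3) and 11 (20.3). The lowest were on X, with 28 regions and 0.529 kb per Mb, on 13, with 49 regions and 1.66, and on 14, with 132 regions and 4.64. Set against the length that both aphidicolin lists shared, of which gained regions made up 18.2% over the genome, the order was another one: the share was 36.8% on chromosome 18, 25.7% on 5 and 24.4% on 14, and lowest on 19 (6.77%), 13 (9.19%) and 22 (9.91%). Gained length exceeded lost length on every chromosome except 6, 19 and X, by 3.82 times on 21 and 3.69 times on 16, whereas the ratio was 0.940 on 6, 0.502 on 19 and 0.212 on X.

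**Figure D5:**
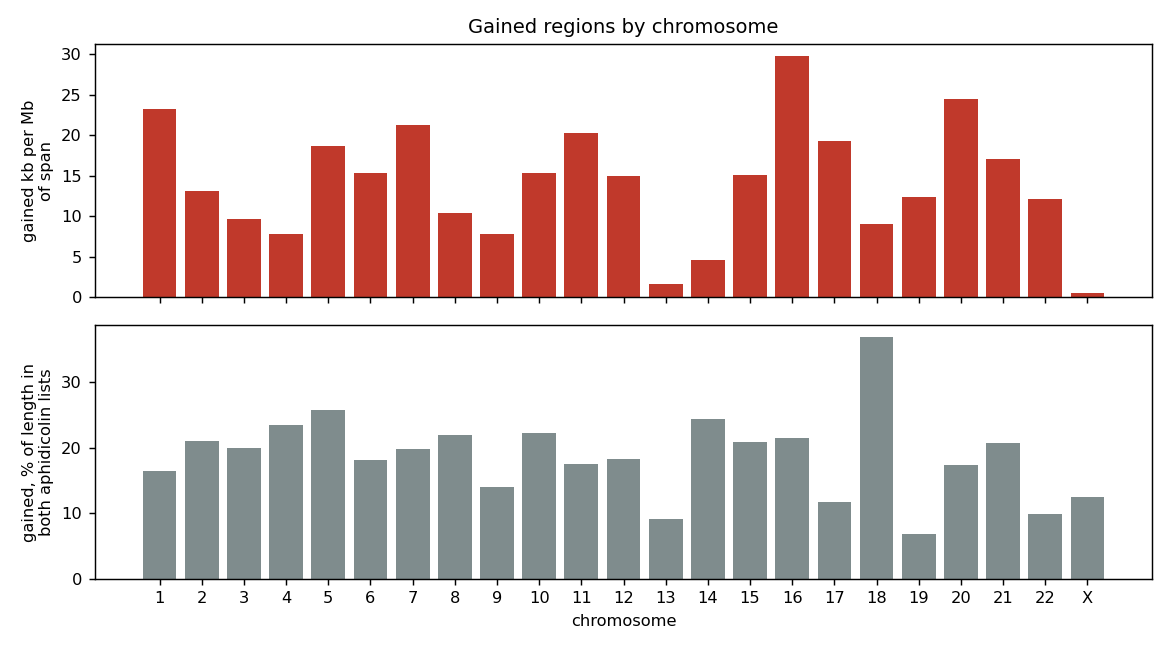
Gained length of each chromosome from 1 to 22 and X, in kb per Mb of its span (upper bars) and in percent of the length in both aphidicolin lists (lower bars). Chromosome 16 has the highest density at 29.8 kb per Mb and X the lowest at 0.529, and chromosome 18 has the highest share at 36.8%.

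Within chromosomes the gained regions were clustered. Of 1529 bins of 2 Mb, 565 (37.0%) held no gained region and 141 (9.22%) held 50% of the gained length. The bin with most, chr7:70000001-72000000, held 83 gained regions with 349 kb and no lost region. There macroH2A1.2 islands covered 20.4% ± 0.325 untreated and 54.7% ± 5.59 under aphidicolin (SD, n = 2), macroH2A1 covered 51.7% ± 0.354 and 75.8% ± 1.48, and γH2AX covered 0.682% ± 1.05 and 2.28% ± 1.77 (n = 5). The next bin, chr6:40000001-42000000, held 63 regions with 314.6 kb and had a different makeup, with macroH2A1 at 69.4% ± 0.240 and 72.8% ± 0.728 and γH2AX at 1.47% ± 0.897 and 19.3% ± 10.9. The other 3 of the top 5 were all on chromosome 1. In chr1:36000001-38000000 (62 regions, 300.4 kb) γH2AX covered 0.944% ± 2.01 untreated and 15.1% ± 6.77 under aphidicolin. In chr1:48000001-50000000 (62 regions, 296 kb) it covered 8.30% ± 8.43 and 5.12% ± 3.77, and in chr1:30000001-32000000 (72 regions, 289.2 kb) 0.490% ± 1.01 and 12.4% ± 5.25. High gained length therefore occurred both in bins with γH2AX under aphidicolin and in bins without much of it.

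Gained regions were denser near the ends of long arms. They took 2.89% of the last 5 Mb and 1.33% of the rest, a ratio of 2.17, against 2.76 for kept and 1.41 for lost regions. In the last 2 Mb the ratio was 1.36 for gained and 2.57 for kept regions, and lost regions took 1.23% of the last 2 Mb and 0.819% of the rest, so that there the ratio of gained regions was below that of lost regions.

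In line 2A3, γH2AX covered 8.56% of the gained length untreated and 17.8% under aphidicolin, a difference of 9.25 points with 1 library each. Its aphidicolin list held 1163 gained regions (10.6%) that its untreated list did not, against 10.9% of kept and 5.02% of lost regions. Both lists held 716 (6.51%), against 8.99% of kept and 3.79% of lost regions. The untreated list alone held 176 (1.60%), a smaller share than of kept or of lost regions. γH2AX cover in 2A3 was 15.6% and 25% over kept regions and 7.14% and 9.76% over lost regions. In cover, gained regions thus stood between the kept and the lost ones in the untreated and in the aphidicolin library. Relative to the whole span, 2A3 cover of gained regions was 2.86 times as high untreated and 4.01 times under aphidicolin.

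The overlap with γH2AX gains was also measured by bases. The bases inside at least 4 aphidicolin and at most 1 untreated γH2AX list of K562 shared 1.01 Mb with the gained macroH2A1.2 regions, which is 2.38% of these regions and 2.98% of these γH2AX bases. Over the whole span these γH2AX bases took 1.11% and the gained regions 1.39%. The γH2AX bases took 9.61% of kept and 4.62% of lost length.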

How the data were processed

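The authors deposited 22 lists of islands, 1 per precipitated library, each giving chromosome, start, end and the count of reads in the island. These counts are raw. Tools listed per the submitters' processing notes are Bowtie2 2.1.0, SICER 1.1 and deepTools, with hg19 as the build, and which step each did is not given. From the names of the deposited lists, the window was 200 bp, gaps up to 600 bp were allowed, and the false discovery rate was 0.01. Total reads per library are unknown, no mappability filter was applied, and 14 input samples were not analysed here. Coordinates are hg19, counted from 1. No hg19 genome or annotation was used, so genes and sequences of the regions are not given. Islands on Y and M (792 of 543417) were left out.

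The gained regions and the lists compared were chosen with earlier results of these data known. Cover is the percent of a region's length inside islands. For the fits, the genome was divided into segments of at least 2 kb with 1 pattern of the 4 macroH2A1.2 lists, and stretches in none of them into pieces of 4 kb. limma 3.58.1 was applied to the cover of segments touched by at least 2 libraries, with the title set in the γH2AX model, and edgeR 4.0.16 to the deposited counts as an alternative. R 4.3.3, numpy 2.4.6 and pandas 2.3.3 were used, and the fits were tested on simulated data. The limma simulation gave every library random spread, so it does not cover segments in which the libraries of a group are identical. Values summed over the gained regions have no test, since the regions were selected on related libraries. Named regions are the 10 widest. Also named are, for each target and direction, the 5 called regions with the largest difference whose groups separate in every title set, ties by width, and the 5 bins of 2 Mb with most gained length. For γH2AX this left no lower region to name. Alternatives were other minimum widths, bridged gaps, denser islands only, equal covered lengths, leaving out each library, a replicate block, another scale, no filter, single title sets and edgeR.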

Additional observations from a re-analysis of the deposited data

How the results depend on the processing

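Over 185 alternative values of the summary results, 84 stayed within a set margin, 101 moved and 0 reversed. Only the macroH2A1, γH2AX and 2A3 differences in cover could be recorded as reversed. Counts, lengths and other percentages could only stay or move. The margin was the spread between replicates for the K562 macroH2A1 and γH2AX differences, and 1.5 times for counts and summed length. For the adjoining share, the hairpin covers and the 2A3 difference it came from a binomial interval over regions. That interval takes regions as independent and measures no spread between libraries. With 1 defining library left out, the gained regions numbered 14311 to 21537 (16815 without aphidicolin replicate 1) and held 58.3 to 91.7 Mb (89.9 without aphidicolin replicate 1, 64.3 without untreated replicate 1). Of them, 32.4% to 46.7% adjoined an untreated island, and 1373 to 2330 (1816 without aphidicolin replicate 1) had macroH2A1 in aphidicolin lists only. Over the same settings sh-RFP cover was 39.3% to 59.2% (39.9% without aphidicolin replicate 3, 56.0% without untreated replicate 3), sh-mH1.2 cover 1.30% to 3.12% and the 2A3 difference 6.66 to 9.87 points (6.74 without aphidicolin replicate 3). With any 1 library left out the macroH2A1 difference was 18.9 to 22.6 points and that of γH2AX 7.23 to 13.4 points.

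With a shortest run of 1 kb, 46.6% adjoined an untreated island and sh-RFP cover was 50.2%. With 5 kb there were 2153 regions with 14.7 Mb, 31.9% adjoining, sh-mH1.2 cover of 3.46%, a 2A3 difference of 11.9 points and 212 regions with macroH2A1 in aphidicolin lists only. With the denser 50% of macroH2A1.2 islands there were 5811 regions, 44.7% adjoining, differences of 12.6 (macroH2A1), 19.7 (γH2AX) and 13.4 points (2A3), sh-RFP cover of 77.0%, sh-mH1.2 cover of 2.13% and 309 regions of that macroH2A1 pattern. With the 4 macroH2A1.2 lists at equal covered length these were 6138 regions, 25.2 Mb, 51.0% adjoining, 17.4 points for macroH2A1, 12.4 for 2A3, 61.7% for sh-RFP, 2.19% for sh-mH1.2 and 500 regions. With the denser 50% of the other lists, the γH2AX difference was 5.67 points, that of 2A3 5.28, sh-RFP cover 25.3% and sh-mH1.2 cover 1.21%. Differences at equal covered length were 5.14 points (macroH2A1) and 1.04 points (γH2AX), sh-RFP cover at the shortest defining list was 14.6%, and 46.8% of regions had an untreated island within 2 kb.

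The calls in limma moved more. Higher macroH2A1 calls were 153 at 5 kb, 308 at equal length and 165 to 2281 with 1 library left out, and edgeR gave 0 (1293 at an unadjusted p under 0.05). Lower ones were 34 at 1 kb, 2 at 5 kb, 157 at equal length and 44 to 240 with 1 library left out, and edgeR gave 0 (94 unadjusted). Higher γH2AX calls were 57 at 5 kb (7.09%, against 4.92% of all segments) and 89 with denser islands (5.98%, against 5.11%). There were 9 at equal length, 59 to 417 with 1 library left out and 72 with no filter (1.28%, against 0.885%). They were 1075 in title set 1 alone, 598 in set 2 alone, 134 without set 2 and 1172 in edgeR. In set 1 alone, set 2 alone and edgeR these were 65.4%, 52.2% and 36.8% of the gained regions tested. Over all segments the shares called higher there were 57.2%, 29.2% and 25.9%. Lower ones were 11 at 1 kb, 2 at 5 kb, 0 to 10 with 1 library left out (18 to 60 unadjusted), 0 with no filter (41 unadjusted), 48 and 30 in set 1 or 2 alone, 0 without set 2 (28 unadjusted) and 31 in edgeR. The cause of these moves was not tested, except that wider minimum widths leave fewer regions to test. For the named macroH2A1 regions 70 of 93 alternative values kept their direction and call, 22 kept the direction only and 1 reversed, the 13.3 points at chr3:32108001-32111000 given above, and for the named γH2AX regions 95 of 98 kept both and 3 the direction only.

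Same-numbered libraries did not deviate together (correlations of 0.0158 for macroH2A1, 0.0501 for γH2AX set 2 and -0.0035 for set 1, over segments), so replicate numbers were not taken to pair samples. With the number as a block, 464 gained regions (5.01%) were higher and 9 (0.0972%) lower for macroH2A1, against 3.92% and 0.432% of all segments. For γH2AX 52 (1.63%) were higher and 0 lower (38 at an unadjusted p under 0.05). Over all segments 1.27% were higher and 0.0341% lower for γH2AX.

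The lists differ in depth and hold nothing outside islands, so a missing island is not evidence of absence. Intervals for counting error were not made, since total reads are unknown.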

Other observations

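No γH2AX library of K562 stood apart within its group by Dixon's criterion, in the 10 combinations of group and measure searched. The measures were of cover and of read density, and macroH2A1 and macroH2A1.2 libraries were not searched. Gained regions that the sh-RFP list held (5652) had macroH2A1 cover of 64.9% untreated and 84.7% under aphidicolin and γH2AX cover of 1.87% and 17.2%. The other gained regions had 48.7% and 71.5% for macroH2A1 and 2.37% and 10.1% for γH2AX. Gained regions with an aphidicolin island of their own in both lists had γH2AX cover of 2.38% ± 0.690 untreated and 9.43% ± 3.73 under aphidicolin (SD, n = 5 each). Those whose aphidicolin island also touched an untreated one had 1.83% ± 0.703 and 18.2% ± 8.17. Values at the ends of chromosomes and near the largest uncovered stretches concern few regions, 58 of them within 1 Mb of such a stretch.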
